A study of Homo sapiens with 4 samples.

Results

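*CYP1A1* and the aryl hydrocarbon receptor (AHR) pathway were followed as a set of 9 genes: the receptor *AHR*, its partners *ARNT* and *ARNT2*, the repressors *AHRR* and *TIPARP*, and the target enzymes *CYP1A1*, *CYP1A2*, *CYP1B1* and *ALDH3A1*. Members were found by matching the RefSeq accession of each probe to a current gene symbol. Of the 9 genes, 8 had a matched probe, and no probe matched *AHRR*. They held 13 of the 58201 probes on the array, and the whole array gave 22439 genes. The 9 genes were chosen with their values on these arrays known, so their differences are given as a description, with no test.

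The study asked which genes change in lung adenocarcinoma cells that receive either strand of *miR-486*. RNA came from A549, an established human lung adenocarcinoma cell line grown in RPMI medium, and all cells were given the transfection reagent RNAiMAX. On 1 array the cells had been transfected with *miR-486-5p*, on 1 with *miR-486-3p*, and 2 mock arrays held cells given the reagent alone. No array held cells given a control miRNA, so an effect of a strand and an effect of receiving any small RNA cannot be told apart. Each strand has a single array, and the labels do not say whether the mock arrays came from separate cultures, so their spread may be technical.

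The arrays shared 1 slide and 1 scan. The scanner software called between 30690 and 31516 probes well above background on an array, and no spot was saturated. A level is the log2 of the background-corrected signal minus the 75th percentile of the same array, so 0 means a signal at that percentile. A difference is the level after transfection less the mock mean, and a difference past 1 in either direction is a change of more than 2-fold. Between the mock arrays, the difference of a probe had an SD of 0.196 over 28246 probes well above background on all arrays. Of the epithelial markers, *KRT7*, *KRT8*, *KRT18* and *KRT19* were well above background on all 4 arrays, *EPCAM* on 2 and *CDH1* on none. Of the fibroblast markers, *COL1A2*, *COL3A1* and *LUM* were not well above background on any array, *COL1A1* was so on both mock arrays and neither transfected array, and *DCN* on all 4. Of the endothelial markers, *PECAM1* and *KDR* were not well above background on any array, and *VWF* and *CDH5* were on all 4. Of the alveolar type II markers, *SFTPC*, *ABCA3* and *NAPSA* were also above it on all 4, *NAPSA* by 1 of its 2 probes. *SFTPB* and *SFTPA1* were above it on none. The leukocyte markers *PTPRC* and *CD3E* were above it on all 4 as well, by at least 1 probe each, with differences of 0.35 and 0.20 on the *miR-486-5p* array and of 0.28 and 0.14 on the *miR-486-3p* array, where *DCN* was at 1.89. Their part in the results was not tested.

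AHR is a ligand-activated transcription factor of the bHLH-PAS family, held in the cytoplasm by HSP90 and its co-chaperones until a ligand such as a polycyclic aromatic hydrocarbon binds. It then enters the nucleus, pairs with ARNT and binds response elements with the core GCGTG. In lung epithelium the pathway is known for inducing *CYP1A1* and *CYP1B1*, cytochrome P450 enzymes that oxidize the hydrocarbons of tobacco smoke, and for inducing its own repressors.

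Matches to the response element core lie before the transcription start of *CYP1A1*, *AHRR* and *TIPARP*. They are shown because AHR binds elements with that core. The sequences came from RefSeq (GRCh38.p14), in windows from 250 bases before to 50 after the start, and entries for 6 of the 9 genes were matched. Capitals mark the core GCGTG, or CACGC where it lies on the opposite strand, and for *AHRR* the longer form TNGCGTG. Positions count from the transcription start to the first capital.
CYP1A1 (chr15:74725571-74725595, − strand, at −57): agggaaggagGCGTGgccacacgta
AHRR (chr5:321672-321698, + strand, at −32): ggcgggcggcTCGCGTGccggggtggg
TIPARP (chr3:156674372-156674396, + strand, at −208): cgagaaaggaCACGCcccctcgcgg
TIPARP (chr3:156674438-156674462, + strand, at −142): aacgaacgcgCACGCgcgcgcaggg
Searched on both strands, the core GCGTG was present in 36.5% of 35116 promoter windows, and TNGCGTG, which contains it, in 5.51%. *AHRR* had 2 windows with matches and *TIPARP* 1 window of 3 with 2 matches. The window of *AHR* held 1 match, after its start, and those of *CYP1A2* and *ARNT* held none. The longer TNGCGTG matched 1 window of *AHRR* and none of *CYP1A1* or *TIPARP*. These letters describe the windows and are not measured binding sites.

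*CYP1A1* lay on opposite sides of mock on the arrays of the 2 strands. It was 3.07-fold lower than the mock mean after *miR-486-5p* and 10.1-fold higher after *miR-486-3p*. *CYP1B1* went the other way, 2.15-fold higher after *miR-486-5p* and at 68.2% of mock after *miR-486-3p*. The receptor *AHR* and the repressor *TIPARP* differed from mock by −0.17 to 0.03 on the log2 scale. With arrays scaled to their median instead, they were at −0.55 and −0.35 after *miR-486-3p*. The partner *ARNT2* was 2.81-fold higher after *miR-486-3p*. In bulk RNA, fewer cells expressing a gene and less of its RNA per cell cannot be told apart.

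**Figure D1:**
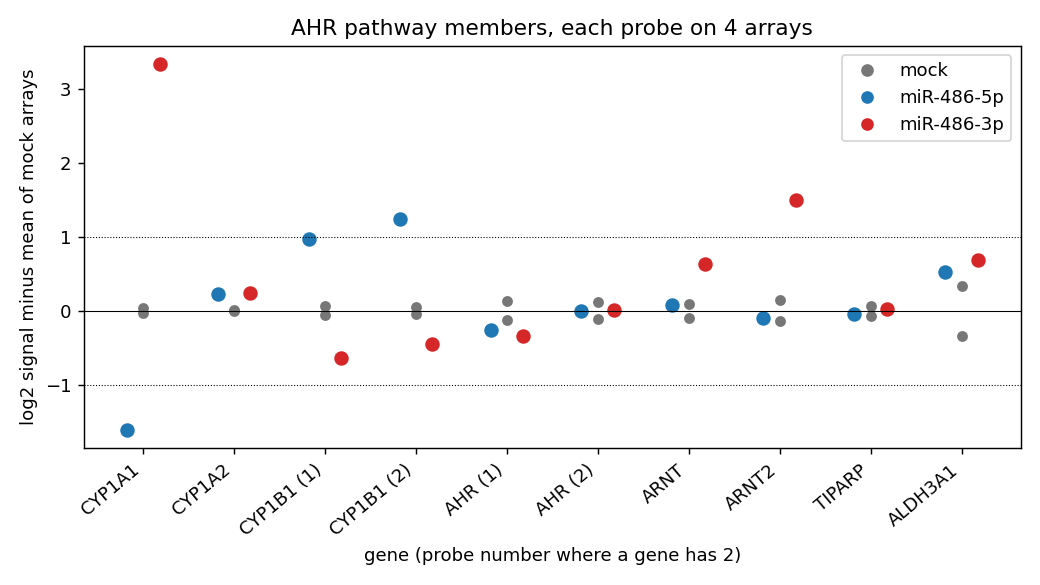
Each point is a probe on an array, as its log2 signal less the mock mean, for the 10 probes well above background on all 4 arrays (gray mock, blue *miR-486-5p*, red *miR-486-3p*; dotted lines mark 2-fold). *CYP1A1* has the widest gap between the strands, at −1.62 and 3.33, and both *CYP1B1* probes lie on the opposite sides.

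*AHR*, the ligand-binding receptor, had a probe with levels of 0.26 on mock 1 and −0.00 on mock 2, −0.14 with *miR-486-5p* and −0.22 with *miR-486-3p*. Both transfected levels lay below both mock levels, and the probe differed from the mock mean by −0.27 and −0.35, where the mock arrays were 0.26 apart. The second *AHR* probe had mock levels of −1.32 and −1.55 and was at −1.44 on each transfected array, between the mock levels. As the mean of its probes, *AHR* differed from mock by −0.14 and −0.17, the latter −0.55 when arrays were scaled to their median.

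*ARNT*, the obligate DNA-binding partner of AHR and of the hypoxia factors, had levels of −0.96 on mock 1 and −1.15 on mock 2, −0.98 with *miR-486-5p* and −0.42 with *miR-486-3p*. The *miR-486-5p* array lay between the mock arrays, and the *miR-486-3p* array lay 0.63 above their mean. With arrays scaled to their median, the latter was 0.26. *ARNT2*, a paralog best known from neural tissue, was dim, with levels of −4.13 on mock 1 and −3.84 on mock 2, −4.08 with *miR-486-5p* and −2.49 with *miR-486-3p*. Only the *miR-486-3p* array stood apart, by 1.49 or 2.81-fold. In signal units its probe read 6.51 on mock 1 and 7.99 on mock 2, 6.17 with *miR-486-5p* and 16.5 with *miR-486-3p*, where the lowest signal called well above background was 4.28 to 4.43. The second *ARNT2* probe was not well above background on any array, and with it included the difference after *miR-486-3p* was 0.89.

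*TIPARP*, a mono-ADP-ribosyl transferase that is induced by AHR and represses it, was bright on every array. Its levels were 3.51 on mock 1 and 3.37 on mock 2, 3.40 with *miR-486-5p* and 3.47 with *miR-486-3p*. Both transfected arrays lay between the mock arrays, and the differences were −0.04 and 0.03, the latter −0.35 when arrays were scaled to their median. Its second probe was not well above background on any array, and with it included the differences were 0.66 and 0.04. *AHRR*, the repressor that competes with AHR for ARNT, gave no value.

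*CYP1A1*, the P450 most often used as a readout of AHR activity, had levels of −2.34 on mock 1 and −2.40 on mock 2, −3.99 with *miR-486-5p* and 0.96 with *miR-486-3p*. The transfected arrays lay on opposite sides of the mock arrays, which were 0.0595 apart. The differences were −1.62 after *miR-486-5p*, or 32.6% of mock, and 3.33 after *miR-486-3p*, and the *miR-486-3p* array was 4.95 above the *miR-486-5p* array. Among the genes with a difference, *CYP1A1* was the 123rd lowest of 16024 after *miR-486-5p* and the 98th highest of 16419 after *miR-486-3p*.

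The signal behind the *CYP1A1* values was low except on the *miR-486-3p* array. The background-corrected signal, with the error the scanner software estimates for the spot, was 22.5 ± 2.43 on mock 1 and 21.6 ± 2.34 on mock 2, 6.58 ± 1.14 with *miR-486-5p* and 181 ± 18.1 with *miR-486-3p*. Before correction, the median pixel of the spot was 42 on mock 1 and 41.5 on mock 2, 27 with *miR-486-5p* and 210 with *miR-486-3p*, over a local background of 17 to 19. The log2 values of the authors' table for *CYP1A1* were 4.47 on mock 1, 4.38 on mock 2, 2.77 with *miR-486-5p* and 7.73 with *miR-486-3p*, in the same order as the scanner signal. *CYP1A1* was represented by a single probe with a single spot, well above background on all 4 arrays. With the median signal corrected by the normexp model, which adds an offset of 50 and so compresses differences of dim spots, *CYP1A1* differed from mock by −0.22 after *miR-486-5p* and 1.89 with *miR-486-3p*.

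**Figure D2:**
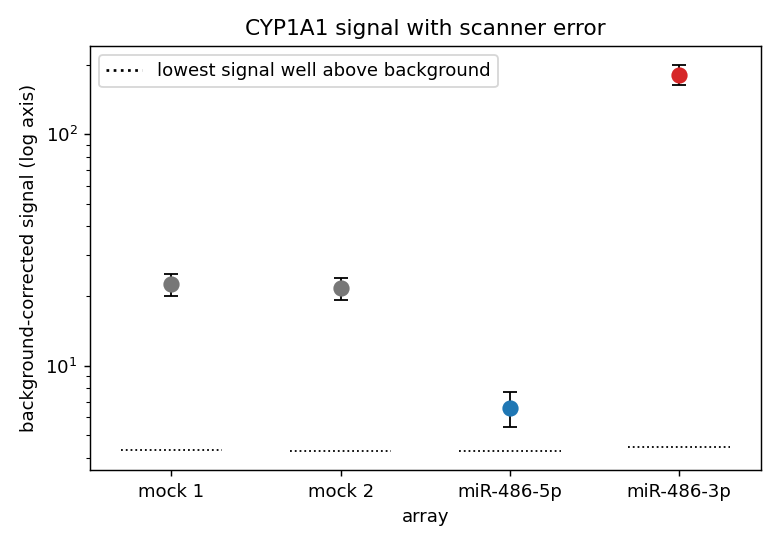
The background-corrected signal of the *CYP1A1* spot is plotted on a log axis for each array, with the scanner software's error for the spot, and dotted lines mark the lowest signal called well above background on that array. The *miR-486-5p* spot, at 6.58, lies nearest to that limit, and the *miR-486-3p* spot, at 181, lies farthest above it.

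*CYP1A2*, the related P450 best known from liver, lies beside *CYP1A1* in the genome and is transcribed from the opposite strand. Its levels were −0.39 on mock 1 and −0.41 on mock 2, −0.18 with *miR-486-5p* and −0.16 with *miR-486-3p*. The transfected arrays were close to each other and above the mock arrays, with differences of 0.22 and 0.24, the latter −0.14 when arrays were scaled to their median. *CYP1A2* thus was not below mock with *CYP1A1* on the *miR-486-5p* array, nor above it to a like extent on the *miR-486-3p* array. The nearest genes with a value on either side of the pair on chromosome 15, which were looked up after the values of *CYP1A1* were seen, had differences of −0.63 and 0.25 (*CLK3*), 0.18 and 0.95 (*EDC3*), −0.02 and −1.37 (*CSK*), and −0.11 and 0.12 (*LMAN1L*) after *miR-486-5p* and *miR-486-3p*.

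*CYP1B1*, the P450 that hydroxylates estrogens as well as hydrocarbons, was measured by 2 probes that gave the arrays in the same order. The first probe had levels of 1.82 on mock 1 and 1.71 on mock 2, 2.73 with *miR-486-5p* and 1.12 with *miR-486-3p*. The second probe had levels of −0.30 on mock 1 and −0.39 on mock 2, 0.90 with *miR-486-5p* and −0.80 with *miR-486-3p*. On both probes *miR-486-5p* gave the highest level and *miR-486-3p* the lowest. In signal units the first probe read 403 on mock 1, 373 on mock 2, 692.5 with *miR-486-5p* and 202 with *miR-486-3p*, far above the background limit on each array. The differences were 0.96 and 1.24 after *miR-486-5p* and −0.65 and −0.46 after *miR-486-3p*, which gave means of 1.10 and −0.55 for the gene. The latter mean was −0.93 when arrays were scaled to their median. The first probe alone leaves *CYP1B1* just under 2-fold after *miR-486-5p*.

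*ALDH3A1*, an aldehyde dehydrogenase induced by AHR ligands and abundant in airway and corneal epithelium, varied between the mock arrays, at −3.31 and −2.63. It was at −2.45 after *miR-486-5p* and −2.29 with *miR-486-3p*. Both transfected levels lay above both mock levels, with differences of 0.52 and 0.68, but the mock arrays were 0.679 apart. Against mock 2 alone the differences were 0.18 and 0.34, and against mock 1 alone 0.86 and 1.02. Its second probe was not well above background on any array.

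Counted together, 2 of the 8 measured members were past 2-fold after *miR-486-5p*, *CYP1B1* upwards and *CYP1A1* downwards. Over all genes, 7.15% of 16024 were past 2-fold on that array, 2.53% upwards and 4.61% downwards. After *miR-486-3p*, 2 of the 8 members were past 2-fold, *CYP1A1* and *ARNT2*, both upwards, beside 28.9% of 16419 genes, 14.8% upwards and 14.1% downwards. Scaling each array to its median instead shifted the median difference of all genes by −0.37 on the *miR-486-3p* array. Of the genes past 2-fold there, 26.7% were then upwards, against 51.3% with the 75th percentile. On the *miR-486-5p* array those shares were 25.3% and 35.5%. The median difference of the members was 0.02 after *miR-486-5p* and 0.43 with *miR-486-3p*, and that of all genes was 0.03 and 0.06. Past 0.5, members numbered 2 upwards and 1 downwards on the *miR-486-5p* array, where the shares over all genes were 13.8% and 15.9% (29.7% together), and 4 upwards and 1 downwards on the *miR-486-3p* array, where they were 30.5% and 27.2% (57.7% together). Since the members were chosen on these contrasts, nothing is read from these counts.

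**Figure D3:**
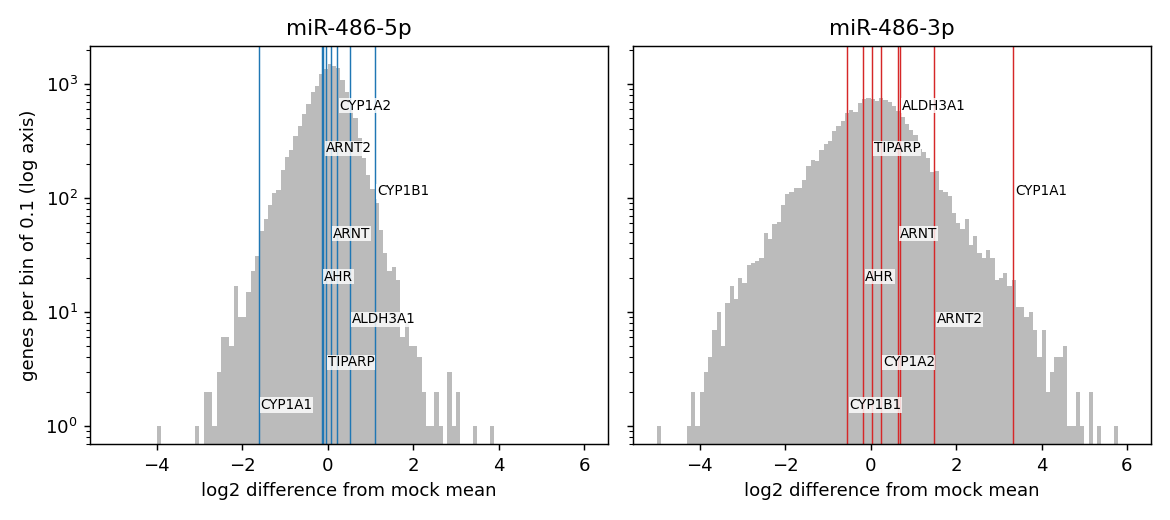
Gray bars count all genes in bins of 0.1 of the log2 difference from the mock mean (log count axis), and lines mark the 8 measured members after *miR-486-5p* (left) and *miR-486-3p* (right). After *miR-486-3p* the genes spread more widely, and *CYP1A1*, at 3.33, lies farthest out among the members.

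The 5 genes whose profile over the 4 arrays lay nearest to that of *CYP1A1*, by Euclidean distance among 16813 genes, were *TNFAIP2*, *DHRS2*, *SYT11*, *SPACA9* and *DNAH10*. *TNFAIP2*, a gene induced by tumor necrosis factor, was nearest at a distance of 0.132, with differences of −1.60 after *miR-486-5p* and 3.21 with *miR-486-3p*. *DHRS2*, a short-chain dehydrogenase, was next at 0.249, with −1.85 and 3.36. *SYT11*, a synaptotagmin, was at 0.282, with −1.44 and 3.11, and was called well above background on some of the arrays, not all. Where it was not, its signal entered at no less than the lowest signal called so on that array. Its differences and its distance may therefore rest on bounds. *SPACA9* was at 0.463, with −1.27 and 3.03. *DNAH10*, an axonemal dynein, was at 0.480, with −1.14 and 3.28. None of the other 8 members was among the 5.

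Genes around the pathway were read from lists, and for these limma was used, fitted across all probes and arrays with Benjamini-Hochberg adjustment at 0.05. The lists were chosen with earlier results of these data known. The adjusted p-values of their genes therefore describe these arrays and are not independent tests of the lists. The fit has 1 residual degree of freedom, between the mock arrays, and assumes that each transfected array varies as they do. It used the levels as measured, so where a printed difference is a bound, the p-value is not for that bound. Over all genes it called 3.52% higher and 6.79% lower after *miR-486-5p*, and 32.2% higher and 31.8% lower after *miR-486-3p*. In genes, the last were 5292 higher and 5218 lower, and with arrays scaled to their median they were 3400 and 7505, so the balance of directions on that array depends on the scaling. In these lists the calls for the *miR-486-5p* array had adjusted p-values of 0.0475 to 0.0494, close to the threshold, and none of them was called with the log2 values of the authors' table or without a filter on dim probes. Other settings called more: the aldehyde dehydrogenases, with 2 calls upwards and 1 downwards, had 7 and 6 with an intensity trend in limma, 6 and 6 with the normexp model, and 4 and 4 with probes well above background on every array.

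Of the 12 chaperones and coactivators of AHR, 1 fell and none rose after *miR-486-5p*, while 4 rose and 4 fell after *miR-486-3p*. The coactivator *NCOA1* had levels of −1.44 on mock 1 and −1.31 on mock 2, −2.34 with *miR-486-5p* and 0.03 with *miR-486-3p*, so it lay on the same sides of mock as *CYP1A1*, with differences of −0.96 (limma adjusted p = 0.0492 for the lower of its probes) and 1.41 (adjusted p = 0.00878). *HSP90AB1*, which encodes a chaperone that holds the unliganded receptor, fell by 1.97 after *miR-486-3p*, 3.92-fold (limma adjusted p = 0.00792), and *PTGES3*, the co-chaperone p23, was at −1.22 (adjusted p = 0.00934). *CUL4B*, a ubiquitin ligase scaffold that works with AHR, rose by 1.18 after *miR-486-3p* (limma adjusted p = 0.00772), with probes at 0.63 and 1.73. The median difference of the list was −0.09 after *miR-486-5p* and 0.10 with *miR-486-3p*.

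Among the other bHLH-PAS factors, the family of *AHR* and *ARNT*, 2 of 11 measured genes rose and 1 fell after *miR-486-5p*, and 2 of 10 rose and 4 fell after *miR-486-3p*. *NPAS2*, a circadian factor, had levels of −1.81 and −1.63 on the mock arrays and fell on both transfected arrays, to −3.38 and −3.33 (limma adjusted p = 0.0475 and 0.0105). *NPAS1* was 0.95 above mock after *miR-486-5p* (limma adjusted p = 0.0475) and fell by 1.46 after *miR-486-3p* (adjusted p = 0.00839), the direction of *CYP1B1* on each array. *SIM2* was at least 1.45-fold higher after *miR-486-5p*, a bound, since the mock arrays were not well above background. Its limma adjusted p of 0.0475 is for the difference of the levels as measured, and not for that bound. The circadian *BMAL1* rose by 0.54 after *miR-486-3p* (limma adjusted p = 0.0284). The list's median difference was 0.11 and 0.00.

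Of 18 other genes reported to be induced by AHR, 10 were measured after *miR-486-5p*, of which none rose and 1 fell, and 8 after *miR-486-3p*, of which 3 rose and 2 fell. *NQO1*, a quinone reductase also driven by NRF2, had levels of 0.22 on mock 1 and 0.18 on mock 2, 0.31 with *miR-486-5p* and 1.71 with *miR-486-3p*, 2.83-fold higher than mock on the last (limma adjusted p = 0.00837). *SLC7A5*, the large neutral amino acid transporter that carries AHR ligand precursors such as tryptophan and kynurenine, went the other way, from 4.31 and 4.38 to 0.42 after *miR-486-3p*, 15.2-fold lower (limma adjusted p = 0.00762). *STC2*, a secreted stanniocalcin, fell on both arrays, by 1.95 after *miR-486-5p* (limma adjusted p = 0.0475) and by 0.93 after *miR-486-3p* (adjusted p = 0.0226). *SOS1*, an exchange factor for RAS, rose by 0.67 after *miR-486-3p* (limma adjusted p = 0.0207 for 1 of its probes and 0.0648 for the other). The list's median difference was −0.08 and 0.13. With arrays scaled to their median, 1 of these genes was called higher and 4 lower after *miR-486-3p*, and with quantile normalization 2 and 4.

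**Figure D4:**
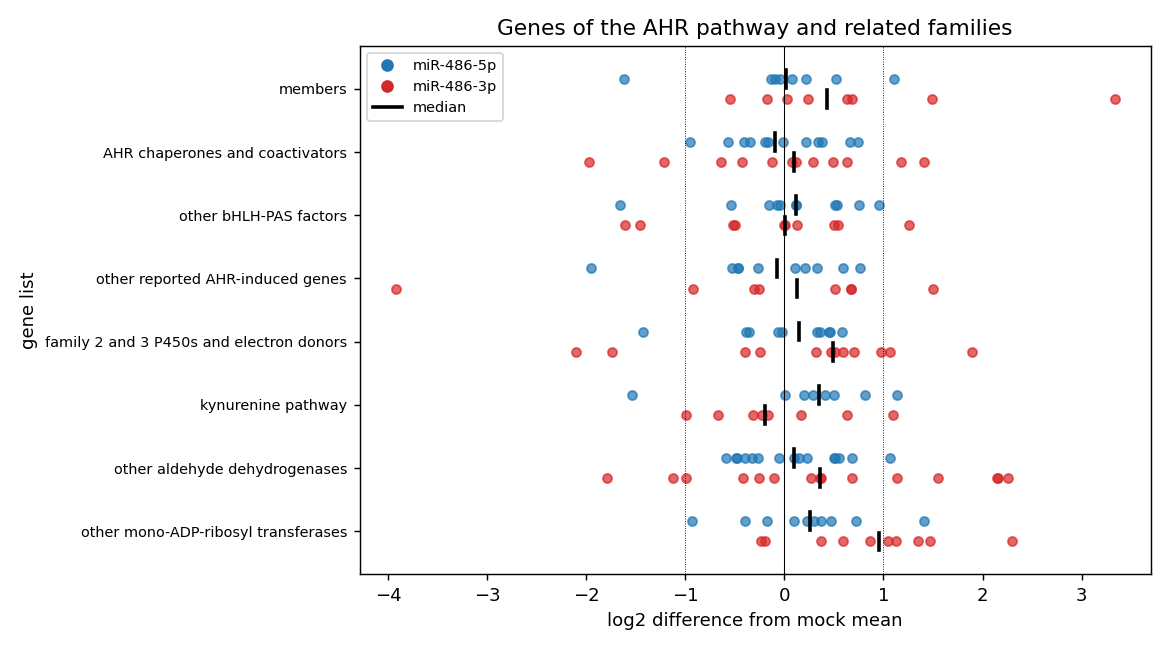
Each point is a gene's log2 difference from the mock mean (blue *miR-486-5p*, red *miR-486-3p*, bounds included), by list, with black bars at the list's median and dotted lines at 2-fold. The members have medians of 0.02 and 0.43, and the mono-ADP-ribosyl transferases have the highest median after *miR-486-3p*, at 0.96.

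Of the P450s of families 2 and 3 and their electron donors, 1 of 10 measured genes fell and none rose after *miR-486-5p*, and 4 of 12 rose and 3 fell after *miR-486-3p*. *CYP2U1*, a fatty acid hydroxylase, had the directions of *CYP1A1*, from mock levels of −0.39 and −0.62 to −1.93 after *miR-486-5p* and 0.56 with *miR-486-3p*, with differences of −1.43 (limma adjusted p = 0.0494) and 1.06 (adjusted p = 0.0222). *CYB5R3*, the reductase of cytochrome b5, fell by 2.10 after *miR-486-3p* (limma adjusted p = 0.00762 for its lowest), and *CYP2J2*, an arachidonic acid epoxygenase, fell by 1.74 (adjusted p = 0.00781). *CYP2B6* rose by 0.51, with 1 of its probes called (limma adjusted p = 0.0319) and the other not (limma adjusted p = 0.134). The list's median difference was 0.15 and 0.49. Of the 22 genes on the list, 20 had a matched probe, and the electron donor *POR* and *CYP2A6* had none.

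The kynurenine pathway converts tryptophan to metabolites of which some are AHR ligands. The list used for it also held *IL4I1*, which is not an enzyme of that pathway. Of the 8 measured genes on the list, 2 rose and 1 fell after *miR-486-5p*, and 1 rose and 2 fell after *miR-486-3p*. These were *IL4I1*, *KYAT1* and *AFMID* on each array. *IL4I1*, an amino acid oxidase that makes AHR-activating indoles, had levels of −0.82 on mock 1 and −0.70 on mock 2, −2.30 with *miR-486-5p* and 0.34 with *miR-486-3p*. It had the directions of *CYP1A1*, with differences of −1.54 (limma adjusted p = 0.0475) and 1.09 (adjusted p = 0.0129). *KYAT1*, a kynurenine aminotransferase, had the directions of *CYP1B1*, with differences of 1.13 (limma adjusted p = 0.0475) and −0.68 (adjusted p = 0.0225). *AFMID*, the formamidase before it, was at 0.81 (limma adjusted p = 0.0488 to 0.0957 over its probes) and −0.99 (adjusted p = 0.00821 to 0.104, with a probe at its bound). The strands share their mock arrays, so these pairs of values are not independent of each other. The share of all genes with the directions of *CYP1A1* or of *CYP1B1* was not counted. Nothing is therefore read from such matches, here or in the other lists.

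Of the other aldehyde dehydrogenases, the family of *ALDH3A1*, 2 of 15 measured genes rose and 1 fell after *miR-486-5p*, and 6 of 15 rose and 4 fell after *miR-486-3p*. *ALDH5A1*, succinate semialdehyde dehydrogenase, rose on both arrays, by 1.06 after *miR-486-5p* (limma adjusted p = 0.0475) and 2.15 after *miR-486-3p* (adjusted p = 0.00762). *ALDH2*, which clears acetaldehyde, rose by 2.26 after *miR-486-3p* (limma adjusted p = 0.00768), while *ALDH1B1*, its mitochondrial relative, fell by 1.79 (adjusted p = 0.00768). *ALDH4A1*, an enzyme of proline breakdown, fell by 1.12 after *miR-486-3p* (limma adjusted p = 0.00909 and 0.0147 for its probes). After *miR-486-5p* its probes disagreed, at −1.17 and 0.22. Those of *ALDH1A1* were at 0.03 and 0.44, where 1 of the values is a bound. In each of these genes 1 probe was called (limma adjusted p = 0.0475).

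Of the other mono-ADP-ribosyl transferases, the relatives of *TIPARP*, 1 of 10 measured genes rose and 1 fell after *miR-486-5p*, and 8 of 10 rose and 1 fell after *miR-486-3p*. *PARP9*, an interferon-induced member, had levels of −1.57 on mock 1 and −1.57 on mock 2, −1.28 with *miR-486-5p* and 0.72 with *miR-486-3p*, a rise of 2.30 on the last (limma adjusted p = 0.00762), with probes at 1.29 and 3.31. *PARP10* rose by 1.47 on the same array (limma adjusted p = 0.0101 and 0.0523 for its probes). *PARP11* rose by 1.41 after *miR-486-5p* (limma adjusted p = 0.0475 and 0.0627) and *PARP16* was at −0.93 (adjusted p = 0.048). *PARP8* was at −0.20 after *miR-486-3p*, with 1 of its 3 probes called lower (limma adjusted p = 0.0246). The median difference of this list was 0.26 after *miR-486-5p* and 0.96 with *miR-486-3p*, while *TIPARP* itself was at −0.04 and 0.03.

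**Figure D5:**
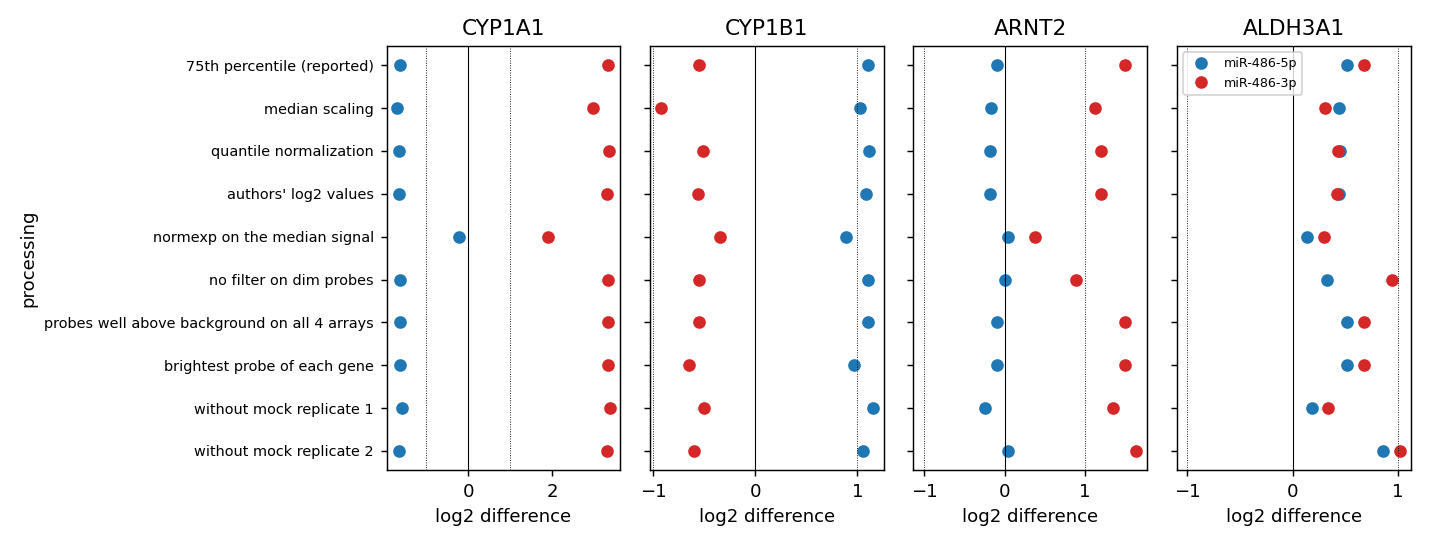
The log2 difference from mock of the 4 members that were past 2-fold or varied most between the mock arrays is plotted under each processing (blue *miR-486-5p*, red *miR-486-3p*; dotted lines mark 2-fold). *CYP1A1* keeps its directions under all of them and is past 2-fold except after *miR-486-5p* with the normexp model, at −0.22, whereas *ARNT2* ranges from 0.38 to 1.64 after *miR-486-3p*.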

How the data were processed

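The authors deposited, for each array, the spot intensity on a linear scale as given by Agilent Feature Extraction 12.1.1.1, background-corrected by that software, and a log2 value per probe and array, whose normalization is not given in the sources used here. These log2 values had a median of 2.76 on each array and served as an alternative.

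Control and outlier spots (50 to 72 an array) were left out, spots of a probe were averaged, and log2 of the processed signal minus the 75th percentile of the array was taken. A probe entered a comparison where the scanner software called it well above background in the transfected cells or in each mock. A group that was not well above background was raised to the lowest signal called so on its array, and its difference is a bound. Probes entering for a gene were averaged. Of 33080 probes with a RefSeq accession, 31104 matched a symbol of the GRCh38.p14 table, used for names and promoter sequences. The arrays were annotated on hg19, and no coordinate was converted.

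limma 3.58.1 (R 4.3.3) was fitted to 3 groups on 33500 probes, with a prior of 1.75 degrees of freedom and an SD of 0.0893. A called gene has at least 1 called probe. No p is given for members, and precision is limited by the small number of arrays. Members and lists were chosen with earlier results of these data known. Named beside the members were the called genes of each list or, above 4, the 2 largest rises and falls among genes well above background on all arrays, and the 5 profiles nearest to *CYP1A1*. Of the marker lists, the leukocyte genes *CD68* and *LYZ* had no matched probe, and 1 marker is not reported here. The alternatives were other scalings, the authors' log2 values, another background correction, other probe filters, the brightest probe, another fold limit, an intensity trend in limma, and leaving out each mock array. Figures were drawn in Python 3.11.15.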

Additional observations from a re-analysis of the deposited data

How the results depend on the processing

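*CYP1A1* kept its directions under every setting run, and leaving out either mock array gave −1.65 to −1.59 with *miR-486-5p* and 3.30 to 3.36 with *miR-486-3p*. With median scaling, which shifted the median of all genes by −0.08 and −0.37 for the 5p and 3p strands, *CYP1A1* differed by −1.69 and 2.96, and *CYP1A2* and *TIPARP* were at −0.14 and −0.35 for *miR-486-3p*. The share of higher genes among those past 2-fold went from 35.5% to 25.3% and from 51.3% to 26.7%. The normexp model on the median signal, chosen after seeing the data because the mean signal is not used here, gave −0.22 and 1.89 for *CYP1A1*, 0 and 1 members past 2-fold, and shares of higher genes of 20.7% and 35.0%. Its offset compresses dim differences by construction. Members past 2-fold were 1 for *miR-486-5p* with the brightest probe (*CYP1B1* at 0.96), and for *miR-486-3p* 1 with no filter on dim probes (*ARNT2* at 0.89), 5 with a log2 limit of 0.5, and 2 to 3 when either mock array was left out, with *ALDH3A1* added at 1.02 without mock 2. *ARNT2* was at 1.35 to 1.64 without either mock array.

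The counts in this paragraph are of list genes past 2-fold by their log2 difference, and not of limma calls. For *miR-486-5p*, the settings used above gave 0 chaperones, 2 kynurenine genes and 1 gene in each other list. Under the normexp model these counts became 0 in 6 of the lists. The 6 were the bHLH-PAS factors, AHR-induced genes, P450s, kynurenine genes, aldehyde dehydrogenases and mono-ADP-ribosyl transferases. Under median scaling they became 1 (chaperones), 0 (aldehyde dehydrogenases) and 2 (mono-ADP-ribosyl transferases), with no filter 2 (AHR-induced genes) and 3 (aldehyde dehydrogenases), and with the brightest probe 2 (aldehyde dehydrogenases). Without a mock array they ranged from 0 to 1 (chaperones) and 1 to 2 (bHLH-PAS factors). For *miR-486-3p*, the settings used above gave 4 chaperones, 3 bHLH-PAS factors, 2 AHR-induced genes and 4 P450s. They also gave 1 kynurenine gene, 7 aldehyde dehydrogenases and 5 mono-ADP-ribosyl transferases. The normexp model left 2 chaperones, 0 bHLH-PAS factors, 1 P450, 0 kynurenine genes, 4 aldehyde dehydrogenases and 1 mono-ADP-ribosyl transferase. Median scaling left 2 mono-ADP-ribosyl transferases, and no filter gave 5 AHR-induced genes. Kynurenine genes past 2-fold, 1 higher and 0 lower with the settings used above, were 2 under median scaling (0 higher, 2 lower). They were also 2 under quantile normalization, the authors' log2 values and no filter (1 higher, 1 lower in each). With 1 mock array left out they were again 2 (1 higher and 1 lower without mock 1, 2 higher without mock 2).

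The genes limma called for *miR-486-5p*, 1647 as reported, became 3301 with median scaling, 7430 with the normexp model, 5727 where a probe had to be above background on each of the 4 arrays and 7705 with an intensity trend. limma called 0 with the authors' log2 values and 0 with no filter, where 7837 and 9219 genes had an unadjusted p under 0.05; no other tool was run. The 10318 genes called for *miR-486-3p* stayed within 1.5 times in total under each of these settings, while median scaling turned 5292 higher and 5218 lower into 3400 and 7505. The causes were not tested. Naming by the GeneName column was not run, and without a mock array limma has no residual degree of freedom. No paired analysis was possible because the transfected groups have 1 array each and share fewer than 2 replicate numbers with mock.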
